A study of Bos taurus with 12 samples.

Results

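The transcripts described here encode 10 proteins of nutrient signalling: the insulin receptor INSR, its substrates IRS1 and IRS2, the kinase AKT1, the mTOR kinase and its partner RPTOR, the mTORC1 inhibitor DDIT4, the AMPK catalytic subunit PRKAA1, and the transcription factors FOXO1 and FOXO3. Members were the non-control probes whose RefSeq transcript identifier maps to one of these symbols. Of the 10 genes, 5 had such a probe (AKT1, RPTOR, DDIT4, PRKAA1 and FOXO3), with 15 probes among the 43653 of the array. The files identify their transcripts as NM_173986 (AKT1), NM_001192130 (RPTOR), NM_001075922 (DDIT4), NM_001109802 (PRKAA1) and NM_001206083 (FOXO3). Of these, 4 genes with 5 probes passed the filter on dim probes, among 7932 genes and 19406 probes that passed over the whole array. INSR, IRS1, IRS2, MTOR and FOXO1 had no probe with a matching identifier and were not analysed here, so the account starts below the receptor and its substrates. Probes that received no symbol were not searched for them.

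Mammary gland biopsies came from lactating Holstein dairy cows in midlactation, and each cow gave 1 sample per period. In the CONT period the cows ate a lactation diet ad libitum and were biopsied on day 0. In the REST period feed was cut so as to supply 50% of the net energy that lactation required, and the biopsy followed on day 6. The labels name 6 cows in both periods (12 one-colour arrays, 6 per group), whereas 5 are counted in the series description. The methods of the study mention a Holstein cow left out because of mastitis, and the labels do not say whether that animal is among those arrayed. Fits that omit 1 cow at a time are therefore given where they change a result. No untreated cows were sampled in parallel, so days elapsed and restriction cannot be told apart. The biopsies hold all cell types of the gland, and fewer cells of a type and less RNA per cell cannot be told apart.

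Insulin binding to its receptor recruits IRS proteins and PI3K, which activate AKT. AKT relieves the brake on mTORC1, the complex that promotes protein synthesis when amino acids and energy are plentiful, and keeps FOXO factors out of the nucleus. AMPK, a kinase that senses a low energy state of the cell, acts in the opposite sense on mTORC1 and on lipid synthesis, and in the lactating gland these routes are known to meet at the synthesis of milk protein and fat. The arrays measure transcripts, whereas most control in this pathway is known to run through phosphorylation, which they do not measure.

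The biopsies carried the transcripts of secretory epithelium at high signal, with CSN1S1, CSN3, LALBA and PAEP at a normalized signal of 9.34 or more on every array. Normalized signal is given throughout in log2 units relative to the 75th percentile of the array. Spots were dimmer on slide 3, which held both arrays of cows 5 and 6. The 75th percentile of the processed intensity was 73.2 to 117 there and 252 to 390.0 on slides 1 and 2, and 41.9 to 48.0% of spots against 61.8 to 67.9% were well above background. Each slide held both arrays of its cows, so changes are also given by slide. Over the whole array, 1286 of 7932 tested genes (16.2%) changed between periods with the cow as a block (limma, adjusted p under 0.1), 551 of them (6.95%) higher and 735 (9.27%) lower in REST. Without the cow in the fit, 350 genes were called.

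None of the 4 tested members was called with limma, against 16.2% of all tested genes and 16% of all tested probes. The count was also 0 at an unadjusted p under 0.05, which 27.7% of all tested genes met, and 0 in the fit without the cow, which called 4.41% of genes and 4.31% of probes. The median change of the 4 was -0.05, beside -0.01 over all tested genes. The 4 differed in how far the cows disagreed, and DDIT4 stood out in this respect.

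**Figure D1:**
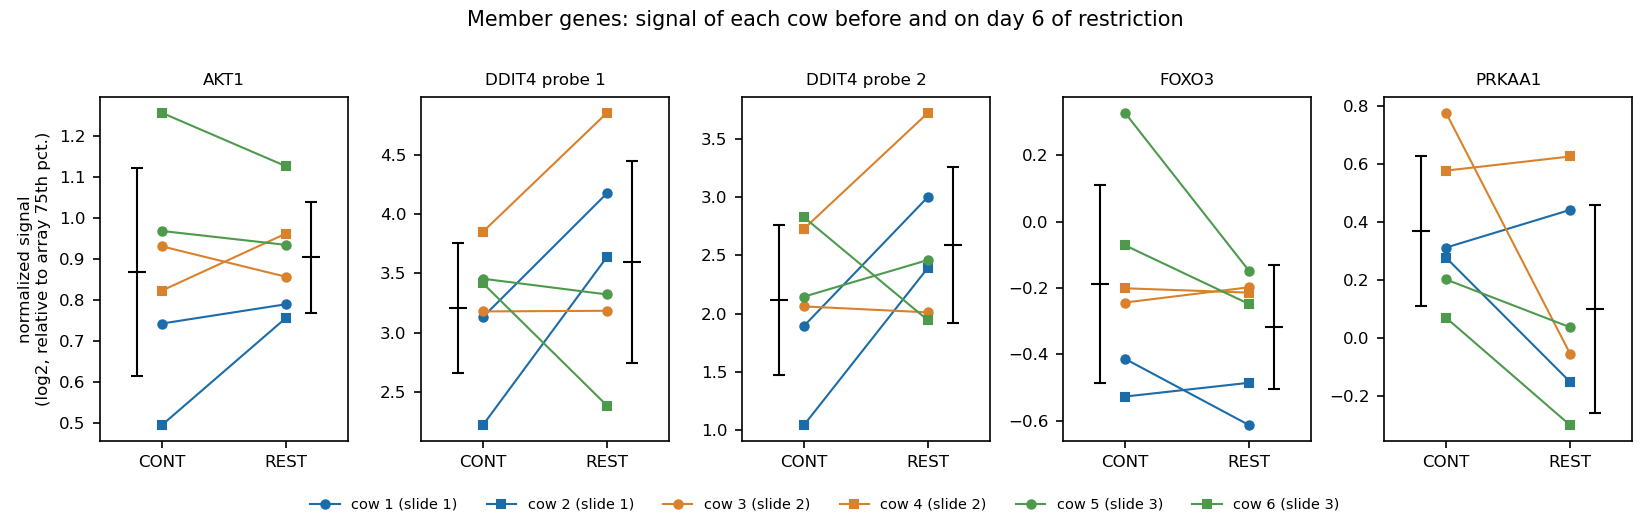
Normalized signal (log2, relative to the 75th percentile of the array) of the 5 tested probes of the member genes in CONT and REST, each on its own scale. Coloured lines join the 2 arrays of a cow, and black bars give the mean and SD of 6 cows. The lines of DDIT4 fan out, with REST above CONT by 1.0 to 1.42 in cows 1, 2 and 4 on both probes and below it in cow 6.

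AKT1 is the kinase on which signals from the insulin receptor converge. Its normalized signal ran from 0.49 through a median of 0.88 to 1.26 in CONT and from 0.76 through 0.90 to 1.13 in REST. The REST values lay entirely within the CONT range. The change was 0.03 (SE 0.08, 95% confidence interval -0.15 to 0.22, limma adjusted p = 0.813), with 3 cows higher and 3 lower. Its direction was not stable, since the change was -0.01 without cow 2 (adjusted p = 0.960), and it was 0.15 on slide 1, 0.03 on slide 2 and -0.08 on slide 3. The interval leaves room for a change in either direction as large as the median absolute change of all tested genes, 0.15. The SD of the 6 changes was 0.15, below the median SD of 0.25 over 7931 genes.

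The list of other genes between the receptor and AKT held 25 genes, 22 with a probe and 16 tested. Of these, 1 rose, none fell and 15 were not called (6.25% called, beside 16.2% of all tested genes), and the median change was 0.01. The catalytic and regulatory subunits of PI3K changed by -0.08 (PIK3CA), 0.18 (PIK3CD), 0.14 (PIK3R1) and 0.00 (PIK3R2). None of these passed the test (limma adjusted p 0.465 or more). AKT2 exceeded background clearly on 1 CONT and 4 REST arrays, so no change is given for it.

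The called gene was PIK3IP1, a membrane protein known to restrain PI3K. Its signal was 0.17, 0.22 and 1.07 (lowest, median, highest) in CONT and 0.30, 1.15 and 1.90 in REST. All CONT arrays but that of cow 5 lay at 0.52 or below, and 5 of 6 cows were higher in REST, so the groups overlapped at the top of CONT and the bottom of REST. The rise was 0.72 (SE 0.22, interval 0.21 to 1.23, limma adjusted p = 0.081), on 2 of 2 tested probes. It was not called without the cow in the fit (adjusted p = 0.126), nor when cow 1, 2, 4 or 6 was left out, at changes of 0.66, 0.53, 0.67 and 0.71.

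RPTOR is the scaffold through which mTORC1 finds its substrates. One of its 2 probes exceeded background clearly on 1 CONT array and on 0 REST arrays, the other on 0 of 12. No change is therefore given, and these probes bear on neither the presence nor the level of RPTOR beyond that.

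DDIT4 (also REDD1) encodes a short-lived stress-induced inhibitor of mTORC1 that acts through the TSC complex. With its brighter probe the signal was 2.22, 3.30 and 3.85 (lowest, median, highest) in CONT and 2.38, 3.48 and 4.86 in REST. The ranges overlapped over most of their length. The change was 0.39 (SE 0.29, interval -0.28 to 1.05, limma adjusted p = 0.425), with 4 cows higher and 2 lower. Behind this mean stood unlike cows: REST minus CONT was 1.05 in cow 1, 1.42 in cow 2, 0.01 in cow 3, 1.01 in cow 4, -0.13 in cow 5 and -1.03 in cow 6. By slide the change was 1.23, 0.51 and -0.58.

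The dimmer DDIT4 probe gave the same picture. Its signal was 1.04, 2.10 and 2.83 in CONT and 1.94, 2.43 and 3.73 in REST, again with overlap. The change was 0.47 (SE 0.27, interval -0.14 to 1.08, limma adjusted p = 0.289), at 1.11, 1.35, -0.05, 1.0, 0.32 and -0.89 in cows 1 to 6. The 6 changes of the 2 probes correlated at r = 0.98, a description of 2 probes read on the same arrays.

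The SD of the DDIT4 changes was 0.93, at percentile 98.8 of 7931 genes, against percentile 74.1 for PRKAA1, 33.6 for FOXO3 and 15.1 for AKT1. The mean change depended on single cows: it was 0.25 without cow 1, 0.18 without cow 2 and 0.67 without cow 6, with none of these called. Without slide 3 (cows 5 and 6), an alternative chosen after the values were seen, it was 0.87 and was called (limma adjusted p = 0.053). Slide 3 had the dimmer spots, and the part of this in the DDIT4 values was not tested. Both DDIT4 probes were well above background on all 12 arrays, those of slide 3 included.

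The genes whose signal was most like that of DDIT4 over the 12 arrays of 6 cows, among 7931 genes, were CDKN1A (Pearson r = 0.92, Spearman rho = 0.92), MECR (r = 0.90, rho = 0.84) and GTPBP2 (r = 0.88, rho = 0.97). They were looked up after the DDIT4 values were seen, and the 12 points share cows and slides. CDKN1A, a cell cycle inhibitor, changed by 0.59 (limma adjusted p = 0.350), MECR, an enzyme of mitochondrial fatty acid synthesis, by 0.10 (adjusted p = 0.536), and GTPBP2, a GTP-binding protein, by 0.59 (adjusted p = 0.237). None of them was called.

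Of the other genes of the mTOR complexes, with their direct regulators and substrates, 21 were listed, 18 had a probe and 15 were tested. Of these 3 fell, none rose and 12 were not called (20% called, beside 16.2% of all tested genes), with 2 (13.3%) called without the cow in the fit, and the median change was -0.06. This median was 0.02 with no filter on dim probes and 0.04 without cow 6. The subunits MLST8 (-0.07), RICTOR (0.13) and MAPKAP1 (-0.25), the activator RHEB (0.01), the kinases RPS6KB1 (-0.06) and RPS6KB2 (-0.12) and the translation repressor EIF4EBP1 (0.05) were not called (limma adjusted p 0.141 or more). TSC1 and TSC2, through which DDIT4 acts, had no probe with a matching identifier.

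LPIN1, a phosphatidate phosphatase and known mTORC1 substrate, had been named by the study on these samples, so its fall is no independent evidence about the list. Its signal was -1.87, 0.47 and 1.56 in CONT and -2.92, -1.40 and -0.79 in REST, and fell in 6 of 6 cows although the groups overlapped through the low CONT array of cow 2. The change was -1.88 (SE 0.20, limma adjusted p = 0.0046), on 3 of 3 tested probes. With normexp background correction it was -1.23 and still called.

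TBC1D7 encodes the third subunit of the TSC complex. Its signal was 1.83, 2.04 and 2.48 in CONT and 1.39, 1.62 and 1.86 in REST, a fall in 6 of 6 cows with groups that touched at 1.83 to 1.86. The change was -0.47 (SE 0.10, interval -0.70 to -0.24, limma adjusted p = 0.033), with 2 of 3 tested probes called and all 3 of one sign. With normexp it was -0.29 and called.

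AKT1S1 (PRAS40) is an AKT substrate that binds RPTOR and restrains mTORC1. Its signal was 2.04, 2.29 and 2.53 in CONT and 1.70, 1.90 and 2.22 in REST, lower in 6 of 6 cows with overlapping groups. The change was -0.36 (SE 0.08, interval -0.56 to -0.17, limma adjusted p = 0.038), on 2 of 2 tested probes. The call was lost without the cow in the fit (adjusted p = 0.133), with normexp (-0.22, adjusted p = 0.119) and without cow 4 (adjusted p = 0.107). TBC1D7 and AKT1S1 are thus both known as restraints of the complex, whereas LPIN1 lies downstream of it.

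**Figure D2:**
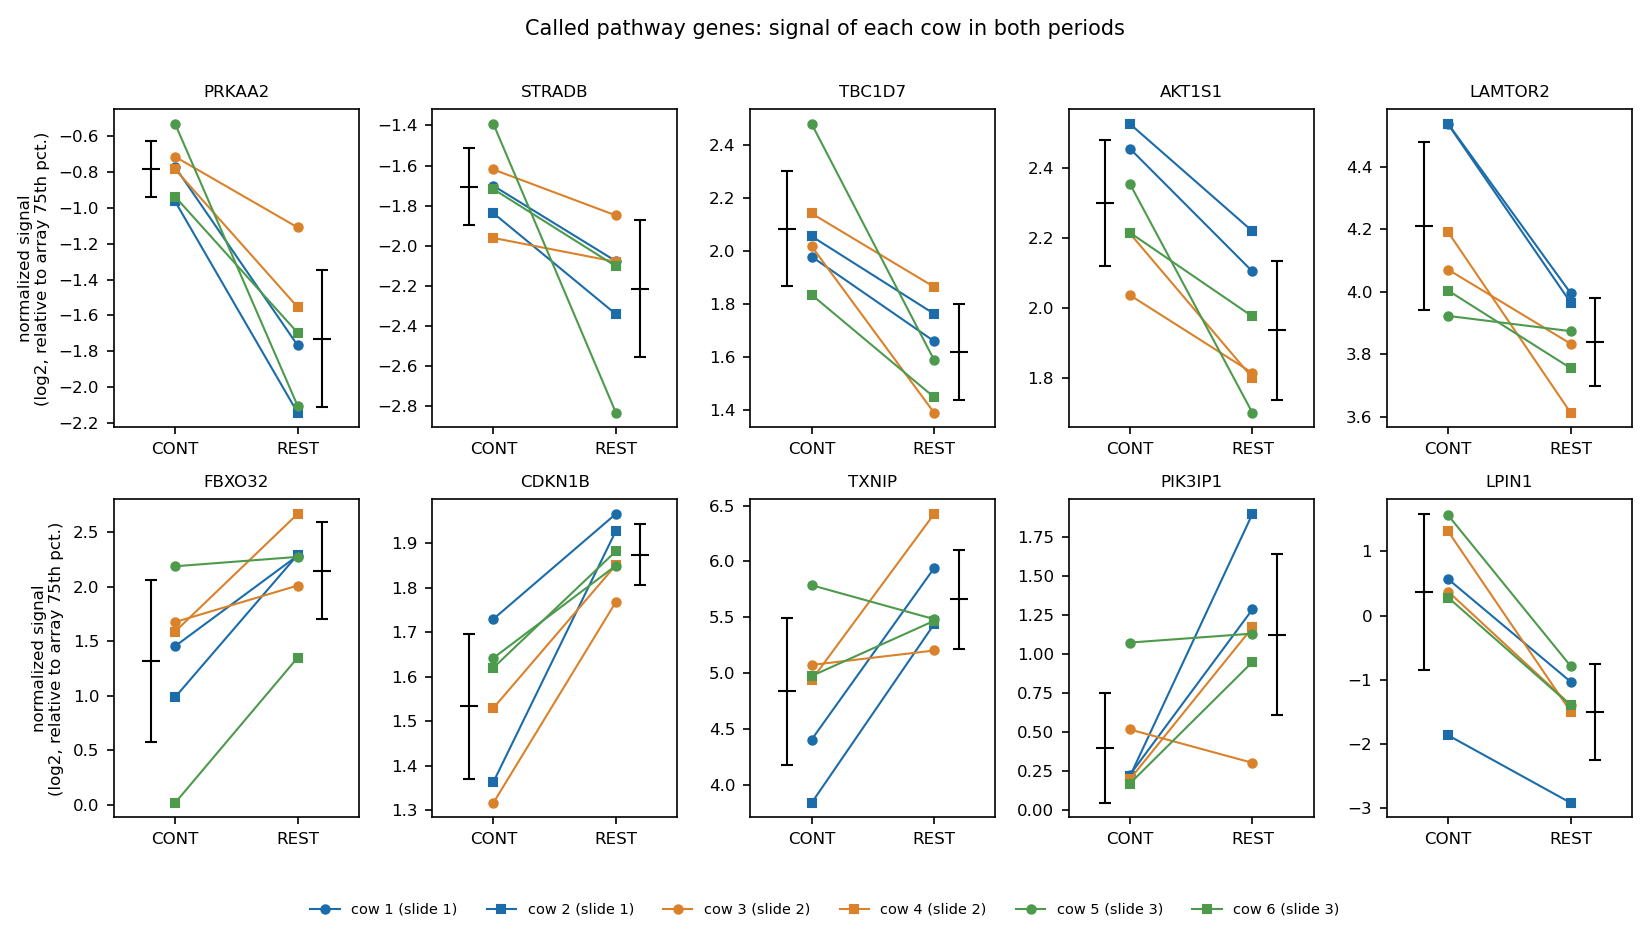
Normalized signal (log2, relative to the 75th percentile of the array) of the 10 pathway genes called with the cow as a block, in CONT and REST, each on its own scale. Coloured lines join the 2 arrays of a cow, and black bars give the mean and SD of 6 cows. PRKAA2 and CDKN1B are the 2 genes in which no CONT array overlaps a REST array.

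Amino acids reach mTORC1 through the Rag GTPases and the Ragulator complex at the lysosome. In this list, 27 genes were named, 23 had a probe and 21 were tested, of which 1 fell, none rose and 20 were not called (4.76% called, beside 16.2% of all tested genes). The median change was -0.09, and 17 of 21 genes had a change below 0, beside 51.6% of all tested genes. The Rag GTPases RRAGA (-0.06), RRAGC (-0.11) and RRAGD (-0.19) were not called, nor were the Ragulator subunits LAMTOR1 (-0.05), LAMTOR3 (0.00), LAMTOR4 (-0.17) and LAMTOR5 (-0.21), at limma adjusted p of 0.129 or more. LAMTOR5 and RRAGD were lower in 6 of 6 cows.

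The gene that fell, LAMTOR2, encodes another Ragulator subunit. Its signal was 3.92, 4.13 and 4.54 in CONT and 3.61, 3.85 and 3.996 in REST, lower in 6 of 6 cows with a narrow overlap. The change was -0.37 (SE 0.10, interval -0.59 to -0.15, limma adjusted p = 0.051) on its 1 tested probe. The call was lost without the cow in the fit (adjusted p = 0.158), with normexp (-0.23, adjusted p = 0.220) and without cow 1 (-0.34), 2 (-0.33) or 4 (-0.33).

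PRKAA1 encodes the alpha-1 catalytic subunit of AMPK. Its tested probe gave a signal of 0.07, 0.29 and 0.78 (lowest, median, highest) in CONT and -0.30, -0.01 and 0.63 in REST. The groups overlapped widely, with cows 1 and 4 slightly higher in REST and the other cows lower. The change was -0.27 (SE 0.13, interval -0.56 to 0.02, limma adjusted p = 0.210). Cow 3 had the largest difference of the 6, at -0.83, and without it the change was -0.16. By slide it was -0.15, -0.39 and -0.27, so the sign was shared by the slides. The other 7 probes of PRKAA1 were well above background on 3 to 10 of the 12 arrays and were not tested.

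PRKAA2, the alternative alpha-2 catalytic subunit, fell. Its signal was -0.96, -0.78 and -0.53 in CONT and -2.14, -1.73 and -1.11 in REST. Every REST array lay below every CONT array. The groups did not overlap, in either direction, for 2.28% of all tested genes. The change was -0.95 (SE 0.14, interval -1.27 to -0.62, limma adjusted p = 0.010), on 2 of 2 tested probes and in 6 of 6 cows. It was called in every alternative run, the fit without the cow included (adjusted p = 0.011), and was -1.09, -0.58 and -1.17 by slide.

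The change of PRKAA2 was below that of PRKAA1 in 5 of 6 cows, by -0.68 ± 0.65 (mean ± SD over 6 cows; two-sided p = 0.09375 by an exact sign-flip test, which cannot go below 0.03125 here). A difference between the 2 subunits was thus not shown at 0.05, although 1 passed the test across genes and the other did not. The pair was compared after the values had been seen.

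Among the 16 other AMPK genes listed, 11 had a probe and 8 were tested, of which 2 fell, none rose and 6 were not called (25% called, beside 16.2% of all tested genes), with 1 (12.5%) called without the cow in the fit and 1 when a probe had to exceed background clearly on each of the 12 arrays. The median change was -0.01. Besides PRKAA2 the gene called was STRADB, a pseudokinase that binds the AMPK-activating kinase LKB1. Its signal was -1.96, -1.71 and -1.39 in CONT and -2.83, -2.09 and -1.85 in REST, with overlap and with cow 5 lowest in REST. The probe was well above background on 6 CONT and 5 REST arrays, so it passed the filter through CONT, where it was higher. The change was -0.51 (SE 0.16, interval -0.88 to -0.14, limma adjusted p = 0.086), lower in 6 of 6 cows. The call depended on single cows: it was lost without the cow in the fit (adjusted p = 0.110) and without cow 1 (-0.54), 2 (-0.51), 3 (-0.56), 4 (-0.59) or 6 (-0.53), and the change was -0.32 without cow 5 and -0.31, not called, without slide 3.

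The regulatory subunits PRKAB1 (-0.23) and PRKAG1 (0.01) and the upstream kinases CAMKK2 (0.07) and MAP3K7 (-0.03) were not called (limma adjusted p 0.242 or more). PRKAB2 and PRKAG3 were well above background on 0 of 12 arrays. The LKB1 gene STK11 and the subunit gene PRKAG2 had no probe with a matching identifier.

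FOXO3 is a transcription factor that AKT keeps out of the nucleus. Its tested probe gave a signal of -0.53, -0.22 and 0.33 in CONT and -0.61, -0.23 and -0.15 in REST. The medians were alike, and only the CONT arrays of cows 5 and 6 lay above the REST range. The change was -0.13 (SE 0.09, interval -0.34 to 0.08, limma adjusted p = 0.392), with 4 cows lower and 2 higher. It was -0.06 without cow 5 and -0.03 without slide 3, so cow 5 carried much of it. The second FOXO3 probe was well above background on 4 CONT and 4 REST arrays and was not tested.

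The list of other FOXO factors and genes known as FOXO targets held 20 genes, 18 with a probe and 14 tested. Of these 3 rose, none fell and 11 were not called (21.4% called, beside 16.2% of all tested genes), and the median change was 0.25. The count depended on the fit. It was 0 with no filter on dim probes, where the median was 0.12, and 1 without the cow in the fit (7.14%, beside 4.41% of all), with the slide as the block or without cow 2 or 4. It was 5 without cow 5 or 6, 6 with normexp or without slide 3, and 7 with the cow as a random block. Such targets are shared with many other regulators, so the list describes transcripts and not FOXO activity. By slide the median change of the list was 0.49, 0.19 and 0.02.

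FBXO32 (atrogin-1) is a ubiquitin ligase known from muscle wasting. Its signal was 0.02, 1.52 and 2.19 in CONT and 1.35, 2.28 and 2.67 in REST, higher in 6 of 6 cows although the groups overlapped. The rise was 0.83 (SE 0.17, interval 0.44 to 1.22, limma adjusted p = 0.029), on 2 of 2 tested probes, and was called without each of the 6 cows in turn. It was not called without the cow in the fit (adjusted p = 0.194) or with the slide as the block (adjusted p = 0.147).

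CDKN1B (p27) is a cell cycle inhibitor. Its signal was 1.32, 1.57 and 1.73 in CONT and 1.77, 1.87 and 1.97 in REST. Every REST array lay above every CONT array, by a small margin. The rise was 0.34 (SE 0.08, interval 0.16 to 0.52, limma adjusted p = 0.041) on its 1 tested probe, and was called without the cow in the fit too (adjusted p = 0.088). The call was lost without cow 2 (0.30) and without cow 4 (0.34).

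TXNIP binds thioredoxin and lowers glucose uptake. Its signal was 3.84, 4.96 and 5.79 in CONT and 5.20, 5.48 and 6.43 in REST, with overlap. The rise was 0.82 (SE 0.26, interval 0.23 to 1.42, limma adjusted p = 0.087), in 5 of 6 cows and on 2 of 3 tested probes. It was 1.57, 0.81 and 0.10 by slide, and was not called without the cow in the fit (adjusted p = 0.162), with the slide as the block (adjusted p = 0.111) or without cow 1 (0.68), 2 (0.67), 4 (0.69) or 6 (0.89).

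PDK4, a kinase that shuts off pyruvate oxidation, had the highest change of this list, 1.01 (SE 0.42), but was not called (limma adjusted p = 0.161). It was singled out after its values were seen. REST minus CONT was 2.60, 2.02, 0.84 and 1.72 in cows 1 to 4 and -0.46 and -0.68 in cows 5 and 6. All 6 of its tested probes had a change above 0, and 1 was called. CAT, which encodes catalase, was higher in 6 of 6 cows at 0.25 (adjusted p = 0.116). FOXO4 (0.23), GADD45A (0.34), SOD2 (-0.04) and BNIP3 (-0.27) were not called either (adjusted p 0.111 or more). G6PC1, IGFBP1 and TRIM63 were well above background on 0 arrays.

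**Figure D3:**
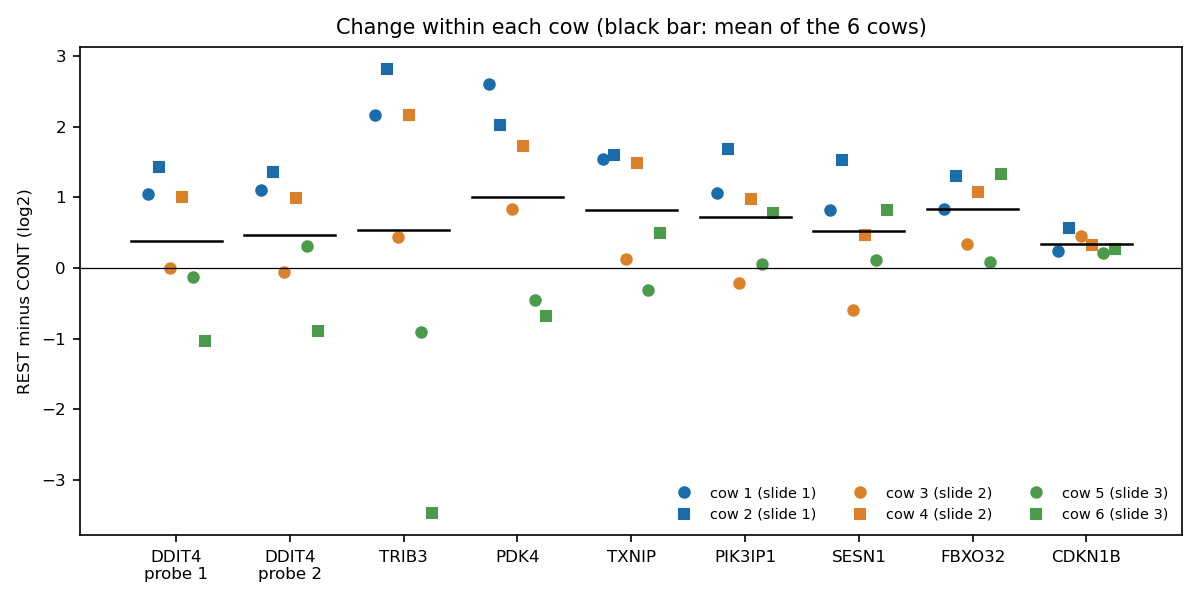
REST minus CONT within each cow (log2) for both DDIT4 probes and 7 other pathway genes, chosen after their values were seen, with the mean of 6 cows as a black bar and the slide by colour. Cows 1, 2 and 4 lie high for DDIT4, TRIB3 and PDK4 while cows 5 and 6 lie at 0.32 or below, whereas the 6 cows of CDKN1B lie together above 0.

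The cows also differed widely in other genes of the lists. TRIB3, a pseudokinase known to bind AKT, differed by 2.17, 2.81, 0.43 and 2.17 in cows 1 to 4 and by -0.91 and -3.46 in cows 5 and 6. Its mean change of 0.54 (SE 0.74) was not called (limma adjusted p = 0.673). SESN1, a leucine-regulated brake on mTORC1, differed by 0.53 (adjusted p = 0.182), with cow 3 at -0.59 and the other cows between 0.11 and 1.53. These genes were chosen after their values were seen, and the cows that went against the rest shared slide 3 for TRIB3 but not for SESN1.

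Over the 5 lists together, 109 genes were named, 92 had a probe and 74 were tested. Of these 10 were called (13.5%, beside 16.2% of all tested genes), 4 higher and 6 lower, and 4 (5.41%) without the cow in the fit, beside 4.41% of all. The 4 were PRKAA2, LPIN1, TBC1D7 and CDKN1B. With no filter on dim probes, only PRKAA2 and LPIN1 of the 10 were called, and with an unpaired test without moderation only PRKAA2, TBC1D7 and CDKN1B. The 2 genes whose groups did not overlap, PRKAA2 and CDKN1B, made 2.7% of the tested list genes, beside 2.28% of all, and 11 genes (14.9%) moved in one direction in all 6 cows, beside 18.3%. The shares thus lay near those of the whole array.

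**Figure D4:**
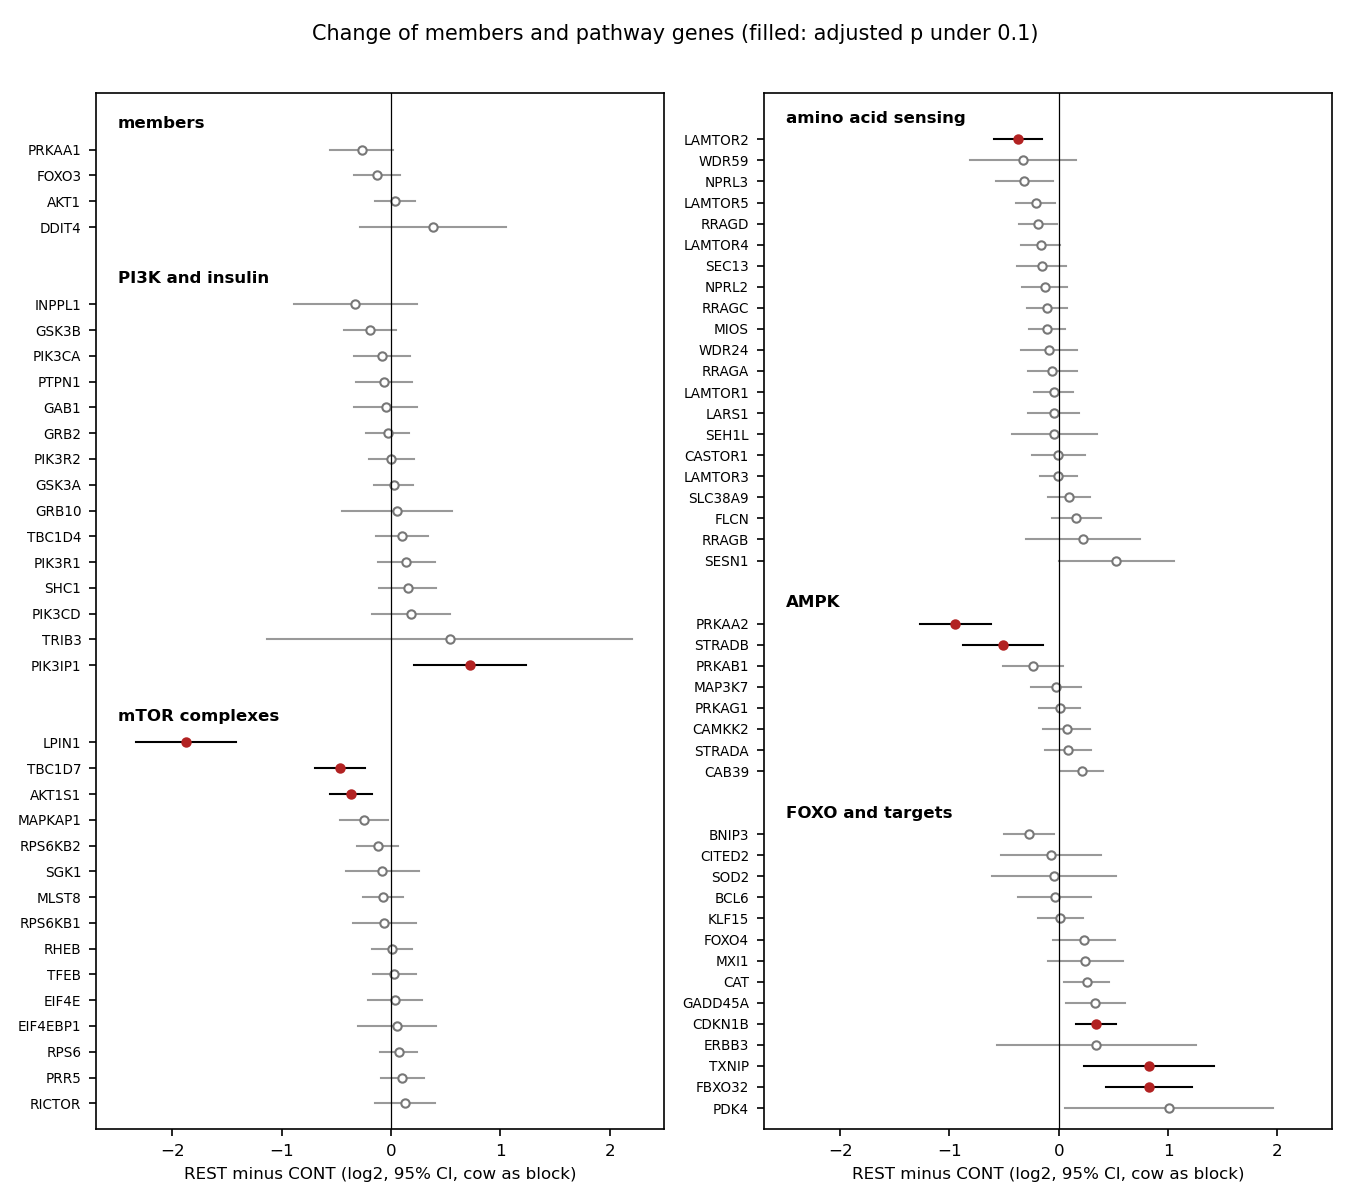
Change from CONT to REST (log2) of the 4 tested members and 73 of the 74 tested genes of the 5 pathway lists, with the 95% confidence interval of the fit with the cow as a block. Filled red points were called (limma adjusted p under 0.1); most points lie near 0, and LPIN1, PRKAA2, FBXO32 and TXNIP are the called genes farthest from it.

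Transcripts that mark cell types also differed between the periods, on the same arrays. Of 47 tested markers, 13 were called with the cow as a block (27.7%, beside 16.2% of all tested genes) and 2, VWF and CLDN5, without it (4.26%, beside 4.41%). Of the 13, 4 were called with the slide as the block, 9 with the cow as a random block, where CD8A, CKM, KRT18 and ACTA2 were lost, and 12 when a probe had to exceed background clearly on each of the 12 arrays, where CD8A was not tested. Their part in the changes of PRKAA2, LPIN1, FBXO32 and the other pathway genes was not tested. The limma adjusted p without the cow in the fit follows for each marker whose call was lost there.

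Of the 10 tested markers of luminal secretory epithelium, KRT8 (0.72) and KRT18 (0.52) rose and CSN3 (-0.28) and CSN1S1 (-0.26) fell, with a median change of -0.11. Without the cow in the fit their adjusted p was 0.133, 0.508, 0.226 and 0.185. The level of the list (log2 of the mean linear signal of its tested markers) was 8.81 to 9.15 in CONT and 8.53 to 8.89 in REST. The changes of the caseins were -0.07 and -0.09 with quantile normalization, where neither was called, and both calls were lost without cow 1, 2, 3, 4 or 6. KRT18 was not called without cow 1, 2, 3, 4 or 5, at 0.42 to 0.58, whereas KRT8 was called without each cow in turn.

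Of 8 tested myoepithelial markers, KRT17 (0.44) rose and CNN1 (-0.53) and ACTA2 (-0.38) fell, with an adjusted p of 0.246, 0.294 and 0.450 without the cow in the fit. Their level was 3.91 to 4.81 in CONT and 3.80 to 4.73 in REST. ACTA2 was not called with quantile normalization (-0.35), with normexp (-0.25) or without cow 1, 2, 3, 5 or 6, KRT17 not without cow 1, 2, 3 or 4, and CNN1 not without cow 2 (-0.49). Of 7 tested endothelial markers, VWF (0.54) and CLDN5 (0.74) rose and none was called lower. VWF and CLDN5 were called under every alternative, which were run for no other marker of this list. The level of the list was 1.18 to 1.86 in CONT and 1.82 to 2.24 in REST.

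Of 10 tested leukocyte markers, CD3E (0.35) and CD8A (0.45) rose, with an adjusted p of 0.226 and 0.494 without the cow in the fit. CD8A was well above background on 5 CONT and 6 REST arrays, so that it passed the filter through REST, where it was higher, and it was at 0.15 and not called with normexp. CD3E was not called without cow 1, 2, 3, 4 or 6. The level of the list was 1.55 to 1.90 in CONT and 1.64 to 1.96 in REST.

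CFD (0.78), the 1 tested adipocyte marker, rose (adjusted p = 0.109 without the cow in the fit). Of the untested adipocyte markers, PLIN1 was well above background on 0 of 12 arrays, LEP on 2 CONT and 2 REST, CIDEC on 4 and 4, and LIPE on 4 and 5. CKM (-0.36), 1 of 2 tested markers of skeletal muscle, fell (adjusted p = 0.474 without the cow in the fit, and not called without cow 1, 2, 3 or 4). Of the untested ones, MYH1 was well above background on 0 arrays, MB on 0 CONT and 1 REST, TNNT3 on 1 and 2, MYH2 on 2 and 2, and MYH7 on 4 and 4. The 7 fibroblast and 2 erythrocyte markers tested included no call. Their median changes were -0.31 and -0.37, with the median below 0 in 4 and in 6 of 6 cows, at levels of 2.31 to 3.21 and 2.79 to 3.34 in CONT and of 1.95 to 3.40 and 2.39 to 3.37 in REST.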

How the data were processed

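RNA (50 ng per sample) from mammary biopsies of 6 cows in 2 periods was hybridised by the authors to one-colour (Cy3) Agilent bovine arrays. Per the file headers, the authors extracted spots with Agilent Feature Extraction 11.0.1.1. The deposited intensity values used here are the processed signal (background-subtracted and detrended, linear scale, not scaled between arrays), and the deposited series value table held the same intensities in all 45220 cells per array. The raw spot and local background intensities, also deposited, served for the normexp alternative.

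Intensities were log2-transformed, and the 75th percentile of all non-control spots of each array was subtracted. After that, 1 to 13 marked spots per array were left out and repeat spots averaged. Tested probes were those that the scanner software called well above background on all 6 arrays of CONT or of REST. Symbols came from RefSeq identifiers through a reference gene table (27131 probes, 12787 genes). The files hold no probe sequences and use an older bovine assembly than that table, so neither sequences nor positions are given. The periods were compared with lmFit and eBayes of limma 3.58.1 in R 4.3.3, with the cow as a block and Benjamini-Hochberg adjustment over 19406 probes (threshold 0.1). Each gene was represented by its brightest tested probe. Tests are two-sided, and the number of arrays limits the precision.

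The labels give the animal of each array. Deviations of the 2 arrays of a cow correlated at 0.36 to 0.57 over 19406 probes, those of different cows in opposite periods at -0.33 to 0.13, and among the arrays of the other period, 12 of 12 arrays correlated best with that of the same cow. For the array tests, the methods of the study name no pairing, so the fit without the block is given beside each result whose call it changes.

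Members, the 5 pathway lists and the 8 marker lists (luminal, myoepithelial, adipocyte, endothelial, fibroblast, leukocyte, erythrocyte and skeletal muscle) were chosen with earlier results of these data known. Named genes were all members, at most 5 called genes of each pathway list, and the markers called or near background. Values of some list genes are not reported here, although counts include them. Genes named otherwise were chosen after their values were seen. The script was tested on simulated data with known changes put on 200 of 19406 probes. Of changes of 0.5 in log2 units, 55.4% were called in the right direction, and of changes of 1, 98.0%. Changes of 0.5 or less can therefore be missed. Python 3.11.15 with pandas 2.3.3 and matplotlib 3.10.9 drew the plots. Alternatives were other blocks, quantile and median scaling, normexp (offset 50), the deposited table, 2 other filters, marked spots kept, trend and robust eBayes, a test without moderation or pairing, the mean of the probes of a gene, and each cow left out. Leaving out slide 3 was added after seeing the data.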

Additional observations from a re-analysis of the deposited data

Results flagged for a closer look

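Of 30 groups of 6 arrays examined for an extreme array, 2 had one, where chance alone would give about 1.5 (1 in 20). Both were LPIN1 in cow 2. In CONT its normalized signal was -1.87 against 0.28 to 1.56 in the other cows, a gap of 0.626 of the range of the group. In REST it was -2.92 against -1.50 to -0.79, a gap of 0.667 of the range. Cow 2 was thus low in both periods, and LPIN1 fell by 1.05 within it.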

How the results depend on the processing

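With the replicate block (the cow, paired by animal) 3105 probes were called, against 837 with no replicate block, 1899 with the slide as the block, 388 with no filter on dim probes, 723 with a t-test without moderation or pairing, and 1044 to 3292 when 1 cow was left out. No member was called with no replicate block or under any alternative but 1: without slide 3, DDIT4 was called and the number of members called was 1. The change of AKT1 was -0.0104 to 0.068 when 1 cow was left out, reversed without cow 2 (-0.0104), and no other of the 80 recomputed changes of members changed sign. Of 515 recomputed changes of single genes, 132 kept their direction and lost the call, and the number of pathway genes called lay between 3 (no filter, or that t-test) and 16 (the cow as a random block), against 10. The causes were not tested. Values of slide 3 rest on dimmer spots, and calls of single genes at adjusted p near 0.1 rest on 6 cows.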
